A study of Macaca mulatta with 10 samples.

Results

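Transferrin (TF), clusterin (CLU), cystatin 9-like (CST9L), eppin (EPPIN), FATE1, BEX2, tissue plasminogen activator (PLAT) and beta-defensin 123 (DEFB123) are taken here as secreted and identity products of Sertoli cells, the somatic cells that nurse the germ cells in the seminiferous tubule. These 8 genes were looked up by name in a count table of 26813 loci, of which 13897 stood for a gene symbol. Of the 8, 5 had a row under their own name. The other 3 were present under other names: TF as the serotransferrin locus LOC106992286, CST9L as LOC712306, and EPPIN as a locus that joins SPINLW1 (an older symbol of eppin) with the eppin-like gene LOC100423810. All 8 therefore had values.

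The libraries hold total RNA of whole testes from 10 wild-type juvenile male rhesus macaques (Macaca mulatta), and the series asks which genes change when undifferentiated spermatogonia commit to differentiation. Each animal received a pulsatile infusion, either of vehicle (n = 3) or of the gonadotropins FSH and LH together for 48 h (n = 3) or 96 h (n = 4). No group received FSH alone or LH alone, and the labels do not say for how long the 3 vehicle animals were infused. Animals keep the numbers of their labels, and values are listed throughout in the order TP07, TP09, TP11 (vehicle, aged 24, 14 and 15 months), TP08, TP10, TP12 (48 h, aged 22, 14 and 15 months) and TP15 to TP18 (96 h, all aged 14 months). As every library comes from its own animal, the p-values rest on variation among animals. The labels give no batch, and a batch that followed the animal numbers could not be told apart from the 96 h group.

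Sertoli cells carry the FSH receptor and, in the mature testis, feed the germ cells behind the blood-testis barrier. Whether these juvenile testes had a working barrier was not measured. As plasma proteins do not pass a formed barrier freely, Sertoli cells make carriers such as transferrin themselves. They also make proteases and protease inhibitors that act at the tubule wall and at cell junctions. Leydig cells, outside the tubules, carry the LH receptor and make testosterone, which in turn acts on Sertoli cells.

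Libraries held 23607039 to 29230966 counts in vehicle, 27824411 to 30375928 at 48 h, and 21824233 to 27684954 at 96 h. Levels are given as CPM, counts relative to the size of the library, with TMM scaling. All 8 Sertoli markers checked (SOX9, WT1, GATA4, DMRT1, AMH, FSHR, CLDN11, INHA) were detected, with summed levels of 1583 to 2015 CPM in vehicle, 1802 to 2385 at 48 h and 1684 to 2064 at 96 h. Mean sums were 1729, 2111 and 1939 CPM, of which AMH gave 935, 784 and 883 and INHA 404, 806 and 550. At each time 3 of the 8 (37.5%) were called higher (adjusted p under 0.05) and 0 lower. Over loci that stood for a symbol, 14.7% were called higher at 48 h and 17.3% at 96 h. The DMRT1 call at 48 h was lost in 8 of 24 alternatives, and the SOX9 call at 96 h in 15. The summed level of 6 Leydig markers was 196 to 346 CPM in vehicle, 1711 to 2113 at 48 h and 1256 to 1584 at 96 h. Of these 6, 5 (83.3%) were called higher at both times. Sums below are given in the same order. Germ cell markers (7 of 8 with a row) summed to 322 to 352, 167 to 202 and 172 to 230 CPM. Of these 7, 2 (28.6%) were called lower at 48 h and 5 (71.4%) at 96 h. Over loci that stood for a symbol, 3.23% and 6.73% were called lower. The calls of GFRA1 held in all 24 alternatives at both times, while that of MAGEA4 at 96 h was lost in 12. Peritubular markers (6 of 6) summed to 403 to 437, 653 to 966 and 557 to 1205 CPM, with 3 (50%) called higher at 48 h and 4 (66.7%) at 96 h. The 96 h calls of TAGLN, DES and MYL9 were lost in 8, 12 and 10 of 24 alternatives. Epididymis and efferent duct markers had 4 of 14 rows, at 22.6 to 25.8, 25.3 to 26.4 and 26.6 to 30.8 CPM. Macrophage markers (6 of 6) summed to 81.6 to 168, 127 to 193 and 156 to 301 CPM, with 0 called at 48 h and 2 (33.3%) called higher at 96 h (CD14 and C1QA). The calls of CD14 and C1QA were lost in 9 and 15 of 24 alternatives. Blood cell markers (3 of 4) summed to 30.8 to 116, 24.1 to 153 and 122 to 398 CPM, so that all 96 h animals lay above all vehicle animals, with 0 called. Endothelial markers (5 of 6) summed to 77.1 to 127, 84.2 to 170 and 85.7 to 167 CPM, with 0 called. The part of these shifts in the results below was not tested. In bulk tissue, fewer cells of a type and less RNA per cell cannot be told apart, and the cell that made a transcript was not measured.

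The 8 genes did not respond alike. DEFB123 and FATE1 rose by 48 h and stayed high, and CST9L was called higher at 96 h. CLU was called lower at 96 h by a narrow margin. TF, BEX2, PLAT and EPPIN were not called in any comparison. The plot of CPM by animal shows each value.

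**Figure D1:**
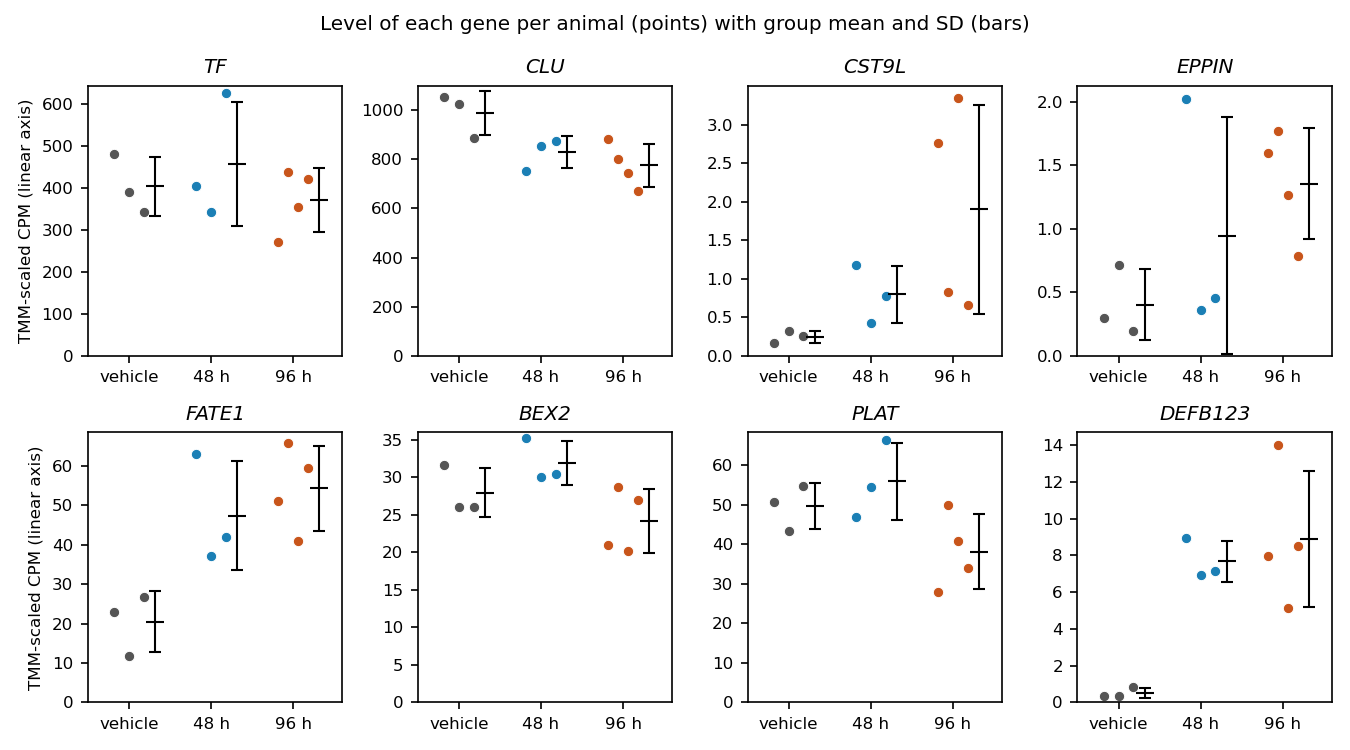
TMM-scaled CPM (linear axes starting at 0) of each of the 8 genes in every animal, with the group mean and SD beside the points, for vehicle, 48 h and 96 h. DEFB123 and FATE1 have no treated animal within the vehicle range, whereas the groups overlap for TF and PLAT.

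At 48 h, 2 of the 8 genes were called higher and 0 lower, where called means an adjusted p under 0.05 over all loci (edgeR's quasi-likelihood test, Benjamini-Hochberg). Over all loci 8.53% were called higher and 3.67% lower, and over loci that stood for a symbol 14.7% and 3.23%. Groups did not overlap for 4 of the 8 genes (DEFB123, FATE1, CST9L, CLU), beside 36.1% of all loci. At 96 h, 3 genes were called higher and 1 lower. The background there was 10.6% higher and 6.89% lower over all loci, and 17.3% and 6.73% over loci with a symbol. Groups did not overlap for 5 genes (the same 4 and EPPIN), beside 30.7% of all loci. The table holds loci with a CPM of 1 or more in at least 3 libraries, and 3 of the 8 genes (DEFB123, CST9L and EPPIN) reached that level in 0 vehicle libraries. These 3 entered through treated animals, so a difference from vehicle was built into their entry, and the counts and median over the 8 genes are descriptions only. Between 96 h and 48 h, edgeR called 0 of the 8, as did edgeR's exactTest, DESeq2 and limma voom, while 2 genes (PLAT and BEX2) had an unadjusted p under 0.05. In that comparison 1.07% of all loci and 1.67% of those with a symbol were called, and groups did not overlap for 1 member (BEX2), beside 16.5% of all loci. The 48 h count of 2 fell to 1 without TP07, TP08, TP09 or TP12, and the 96 h count of 4 fell to 2 without TP07 or TP11. Both treated groups are compared with the same 3 vehicle animals. The median log2 fold change of the 8 genes was 0.70 at 48 h and 0.64 at 96 h, beside -0.07 and -0.01 over all loci.

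**Figure D2:**
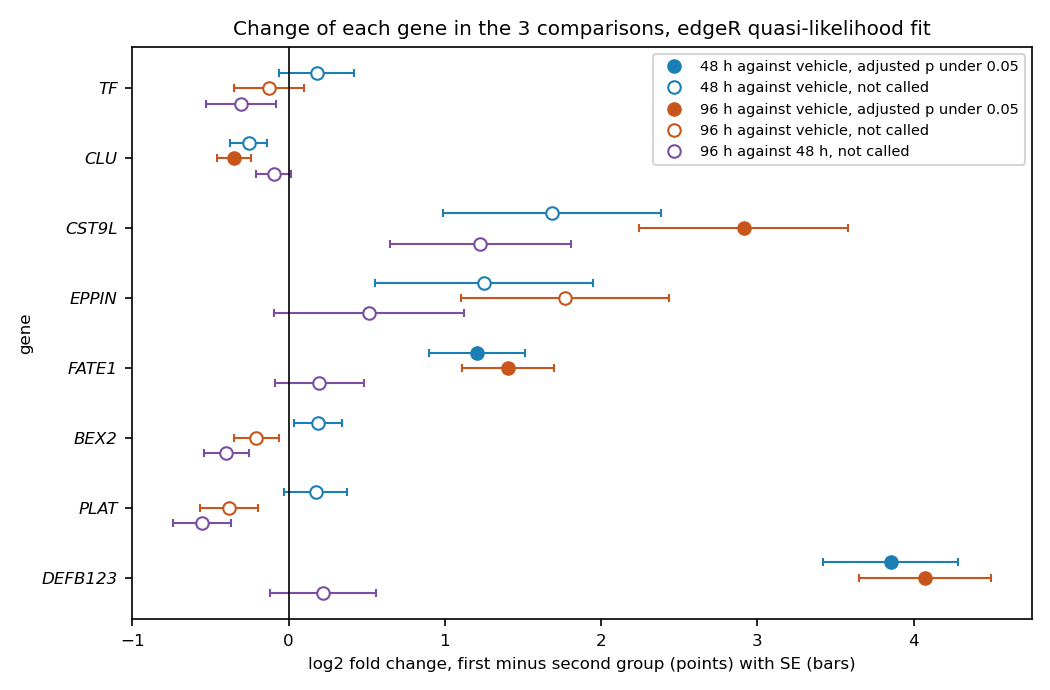
Log2 fold change of the 8 genes (first minus second group, x axis) with its SE, in the 3 comparisons; filled points have an adjusted p under 0.05. DEFB123 stands near 4 in both comparisons with vehicle, and CLU at 96 h is the filled point below 0.

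Transferrin, the plasma iron carrier that Sertoli cells also release toward germ cells, was among the most abundant of these transcripts. Its locus lies on the minus strand of chromosome 2 (168212459 to 168245027, rheMac8), with up to 17 exons in the deposited models. TF read 481, 389 and 342 CPM in vehicle, 403, 343 and 624 at 48 h, and 270, 438, 354 and 420 at 96 h. The groups overlapped throughout, TP12 at 48 h was the highest animal and TP15 at 96 h the lowest. Against vehicle the log2 fold change of TF was 0.18 ± 0.24 (SE) at 48 h (adjusted p = 0.668, 95% interval -0.35 to 0.71) and -0.12 ± 0.22 at 96 h (adjusted p = 0.729, interval -0.62 to 0.37). The sign was unstable: without TP12 the 48 h value was -0.11, and without TP15 or TP07 the 96 h value was 0.0009 or 0.02. A separate model that carries the name TF lies 24310 bases away (168269337 to 168301993, 14 exons). It has no row in the count table, which holds only loci above a CPM cut-off.

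Of 14 measured genes of iron handling, 2 (14.3%) were called higher and 0 lower at 48 h, and 3 (21.4%) and 0 at 96 h. Those shares are near the 14.7% and 17.3% over all loci with a symbol. TFRC, the receptor that takes up transferrin-bound iron, read 121, 86.0 and 108 CPM in vehicle, 178, 141 and 162 at 48 h, and 102, 133, 114 and 125 at 96 h. All 48 h animals lay above all vehicle animals, while the 96 h animals overlapped the vehicle range. The TFRC log2 fold change was 0.61 ± 0.14 at 48 h (adjusted p = 0.0185) and 0.17 ± 0.13 at 96 h (adjusted p = 0.392). ACO1, an iron-sensing regulator of TFRC and ferritin mRNAs, rose from 56.4 ± 0.822 CPM (SD, n = 3) to 101 ± 18.3 (n = 3) and 108 ± 8.86 (n = 4), with adjusted p of 0.00217 and 0.000731. FTH1, the ferritin heavy chain that stores iron, and HEPH, an iron oxidase of cell export, were called higher at 96 h (log2 0.80 and 0.78). The count at 48 h ran from 1 to 3 when an animal was left out, changing by over 1.5 times without TP09, TP11 or TP12, and was 0 with scaling by the summed Sertoli identity list. The 96 h count was 2 with that scaling and 1 with age class as a block. In that block all 96 h animals share a class with only TP09 of vehicle and TP10 of 48 h. Calls lost at 96 h with age class, here and below, can therefore follow from fewer animals. Sertoli-list scaling takes library size from the summed counts of that list, of whose 23 genes 8 were themselves called higher at 48 h. INHA, an abundant one, rose from 404 to 806 CPM. Calls lost with this scaling, here and below, can therefore follow from the list's own change. The TFRC call was lost without TP08, TP09, TP11 or TP12. SRPRB, the gene next to TF, also rose at 48 h (log2 0.61, adjusted p = 0.0105), a call lost with Sertoli-list scaling and without the animals over 20 months.

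Clusterin, a secreted chaperone that binds unfolded proteins and lipids and is abundant in Sertoli cells, had the highest level of the 8. Its locus is on the minus strand of chromosome 8 (27625235 to 27642445, up to 9 exons). CLU read 1052, 1024 and 885 CPM in vehicle, 753, 855 and 875 at 48 h, and 880, 802, 745 and 669 at 96 h. No treated animal reached the lowest vehicle animal, TP11, although TP15 came close to it. CLU differed from vehicle by a log2 fold change of -0.25 ± 0.12 at 48 h (adjusted p = 0.187) and -0.35 ± 0.11 at 96 h (adjusted p = 0.0493). The 96 h call was lost in 15 of 24 alternatives, among them the omission of any 1 animal other than TP15, and with RLE scaling (adjusted p = 0.0562). The authors' deposited table gives an FDR of 0.0935 for it.

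Over loci with a symbol, 14.7% were called higher and 3.23% lower at 48 h, and 17.3% and 6.73% at 96 h. Of 9 measured clusterin receptors and other extracellular chaperones, 1 (11.1%) was called higher and 0 lower at each time. That gene was LRP8, a lipoprotein receptor that can bind clusterin, which rose from 12.1 ± 1.65 CPM (SD, n = 3) to 80.4 ± 37.0 (n = 3) and 78.4 ± 41.2 (n = 4). Its log2 fold changes were 2.73 ± 0.44 (adjusted p = 0.00474) and 2.69 ± 0.42 (adjusted p = 0.00355). VLDLR and LRP2, receptors of the same family, were not called (log2 -0.55 and -0.45 at 96 h). LRP1, another receptor of the list, stood at 602 ± 192 CPM at 48 h and 993 ± 274 at 96 h (log2 0.72 ± 0.27, adjusted p = 0.187).

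PLAT is the secreted protease that turns plasminogen into plasmin; Sertoli cells are known to release it under FSH. It lies on the plus strand of chromosome 8 (42489917 to 42530195, up to 14 exons). PLAT read 50.8, 43.3 and 54.7 CPM in vehicle, 46.9, 54.5 and 66.3 at 48 h, and 27.9, 49.9, 40.7 and 33.9 at 96 h. The 48 h animals overlapped the vehicle range, and 3 of the 4 animals at 96 h lay below it while TP16 lay within it. The log2 fold change was 0.17 ± 0.20 at 48 h (adjusted p = 0.613, interval -0.27 to 0.61), -0.38 ± 0.19 at 96 h against vehicle (adjusted p = 0.176, interval -0.79 to 0.03) and -0.55 ± 0.19 at 96 h against 48 h (unadjusted p = 0.0129, adjusted p = 0.153).

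At 48 h, 14.7% of loci with a symbol were called higher and 3.23% lower. Among 12 measured genes of the plasminogen system, 3 (25%) were called higher and 0 lower at that time. These were PLGRKT, a plasminogen receptor (23.9 ± 1.09 to 37.7 ± 5.30 CPM, SD, n = 3 each), SERPINA5, an inhibitor of plasminogen activators (407 ± 65.0 to 670 ± 157), and ANXA2, a surface docking protein for PLAT and plasminogen (101 ± 12.4 to 183 ± 13.4). The 48 h count fell to 0 at the lowest when an animal was left out, changing by over 1.5 times without TP08 or TP09, and was 0 with Sertoli-list scaling and without the animals over 20 months. At 96 h PLGRKT (32.5 ± 4.39 CPM, SD, n = 4, adjusted p = 0.0401) and ANXA2 (197 ± 68.0, adjusted p = 0.0220) were again called higher, and SERPINA5 was not (445 ± 43.6, adjusted p = 0.602). The 96 h calls of PLGRKT and ANXA2 were both lost with Sertoli-list scaling, with age class as a block and without the animals over 20 months. Both were also lost without TP07, TP09 or TP11, and that of PLGRKT without TP15, TP16 or TP17. PLAU, the other plasminogen activator, read 3.86, 3.79 and 4.62 CPM in vehicle, 6.07, 5.92 and 6.47 at 48 h and 7.46, 6.04, 7.44 and 3.92 at 96 h. The 48 h animals lay above the vehicle animals, but the adjusted p was 0.145. SERPINE2, an inhibitor of both activators, stayed within 312 to 450 CPM in the 10 animals and was not called.

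CST9L belongs to the type 2 cystatins, a family of secreted inhibitors of cysteine proteases, and its relatives of the cystatin 9 kind are known from the early testis. The deposited description of the locus is that of a putative cystatin-9-like protein, CST9LP1, the same as for LOC713135 below, while its gene ID is that of CST9L in the RefSeq gene table, so the match to CST9L is uncertain. The locus is on the minus strand of chromosome 10 (56709144 to 56712342, 3 exons). Its counts were low: 5, 8 and 8 in vehicle, 35, 12 and 24 at 48 h, and 57, 23, 66 and 17 at 96 h. In CPM these were 0.165, 0.319 and 0.258, then 1.18, 0.433 and 0.777, then 2.76, 0.832, 3.34 and 0.666. All treated animals lay above all vehicle animals, and at 96 h TP15 and TP17 were far above TP16 and TP18. Relative to vehicle its log2 fold change was 1.68 ± 0.70 at 48 h (adjusted p = 0.141) and 2.91 ± 0.67 at 96 h (adjusted p = 0.0148), a 7.67-fold ratio of means. The 96 h call was lost without TP07 (adjusted p = 0.066) or TP11 (0.0555), without the 2 animals over 20 months, TP07 and TP08 (0.0753), with age class as a block (0.0835) and in voom (0.0502).

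A pair of unplaced cystatin-9-like loci moved in the same direction; they were singled out after values had been seen. LOC713067 had counts of 6, 4 and 16 in vehicle, 903, 233 and 437 at 48 h, and 1234, 995, 1217 and 841 at 96 h. Those are 0.198, 0.160 and 0.517 CPM, then 30.5, 8.41 and 14.1, then 59.7, 36.0, 61.6 and 33.0, so that the 3 groups did not overlap. Its log2 fold change was 5.86 ± 0.64 at 48 h (adjusted p = 0.000973) and 7.29 ± 0.65 at 96 h (adjusted p = 0.000269), ratios of means of 60.6 and 163. From 48 h to 96 h the log2 difference was 1.43 ± 0.44 and was not called (adjusted p = 0.135). For this difference the authors' deposited table gives an FDR of 0.0163. TP08 at 30.5 and TP18 at 33.0 CPM lay close, and groups did not overlap for 16.5% of all loci in that comparison. LOC713135 rose at 96 h (log2 4.11 ± 0.72, adjusted p = 0.00481). Both loci reached a CPM of 1 in 0 vehicle libraries, so they too entered the table through treated animals. Copies of 1 cystatin family may share reads, so the division of counts between CST9L and these loci is uncertain.

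Of 14 other cystatins and cysteine cathepsins, the proteases that cystatins inhibit, 1 was called higher and 1 lower at 48 h, and 4 higher and 0 lower at 96 h. The 48 h shares were 7.14% each, beside 14.7% higher and 3.23% lower over loci with a symbol. At 96 h they were 28.6% and 0, beside 17.3% and 6.73%. LGMN, a lysosomal protease, rose at 48 h (log2 0.61 ± 0.10), and CTSF, a cathepsin, fell (21.8 ± 2.38 to 11.4 ± 3.08 CPM, SD, n = 3 each). At 96 h CTSH, an aminopeptidase of the lysosome, stood at 15.9 ± 2.08 CPM (SD, n = 4) against 7.96 ± 1.26 in vehicle and 8.10 ± 0.874 at 48 h, and was called against both (adjusted p = 0.00375 and 0.0275). The CTSH call against 48 h was lost without TP08, TP10, TP12, TP15 or TP17, without the animals over 20 months and with age class as a block, while the call against vehicle held in all 24 alternatives. CST3, the widespread secreted cystatin C, rose from 97.6 ± 11.1 to 175 ± 49.2 CPM at 96 h. CST6 was called higher at 96 h (2.31 ± 0.156 to 11.6 ± 9.38 CPM). The call of CST3 was lost without TP07 or TP11, and that of CST6 without any 1 of 7 animals. Both were also lost with age as a covariate, with age class as a block and without the animals over 20 months. That of CST3 was further lost with Sertoli-list scaling, and that of CST6 in voom and in a fit of the 2 groups compared. The 96 h count ran from 1 to 5 when an animal was left out, changing by over 1.5 times without TP07, TP11, TP15 or TP18, and was 1 without the animals over 20 months. The 48 h call of CTSF was lost without TP07, TP08, TP09, TP11, TP12, TP15 or TP17.

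EPPIN encodes a protease inhibitor with a WAP and a Kunitz domain that coats sperm. The joined locus lies on the plus strand of chromosome 10 (18913162 to 18923989), and reads of eppin and of the eppin-like gene in it cannot be separated. Counts were 9, 18 and 6 in vehicle, 60, 10 and 14 at 48 h, and 33, 49, 25 and 20 at 96 h. As CPM these were 0.297, 0.719 and 0.194, then 2.02, 0.361 and 0.453, then 1.60, 1.77, 1.27 and 0.784. At 48 h only TP08 lay above the vehicle range, and at 96 h all 4 animals did. For EPPIN the log2 fold change was 1.25 ± 0.70 at 48 h (adjusted p = 0.270) and 1.77 ± 0.67 at 96 h (adjusted p = 0.0890, interval 0.30 to 3.23). The 96 h difference was called by DESeq2 (adjusted p = 0.0465), in a fit of the 2 groups compared (0.0483) and without TP08 (0.0358). In the authors' deposited table its FDR is 0.0479. Without the animals over 20 months, the 48 h value was -0.13.

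Few relatives of EPPIN had values: 5 of 21 listed WAP and Kunitz inhibitors were measured. The genes on either side, WFDC8 and WFDC6, had no row in the count table. WFDC1, a secreted WAP-domain protein, was called higher at 48 h (log2 1.51 ± 0.30, adjusted p = 0.0103) and not at 96 h (log2 0.79 ± 0.28, adjusted p = 0.0767). The 48 h call of WFDC1 was lost without the animals over 20 months. SPINT2, a Kunitz inhibitor of membrane proteases, was not called (211 ± 28.5, 257 ± 23.5 and 200 ± 13.6 CPM).

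DEFB123, a small cationic secreted peptide of the beta-defensin family, showed the largest change of the 8 genes in both comparisons with vehicle. The locus has 2 exons totalling 216 bases on the minus strand of chromosome 10 (32622137 to 32629243). Counts were 11, 9 and 26 in vehicle, 265, 192 and 221 at 48 h, and 165, 387, 101 and 217 at 96 h. DEFB123 read 0.363, 0.359 and 0.840 CPM, then 8.94, 6.93 and 7.15, then 7.99, 14.0, 5.11 and 8.50. Every treated animal was above every vehicle animal, and the 48 h range lay within the 96 h range. The log2 fold change was 3.85 ± 0.43 at 48 h (adjusted p = 0.000763) and 4.07 ± 0.42 at 96 h (adjusted p = 0.000302), ratios of means of 14.7 and 17.1. Both calls held in all 24 alternatives, with adjusted p up to 0.0153 and 0.00439. Between the times the log2 difference was 0.22 ± 0.34 (adjusted p = 0.738, interval -0.53 to 0.96), and it was -0.09 without TP16.

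The defensin neighbours on chromosome 10 that had a row also rose. DEFB119 reached a CPM of 1 in 1 vehicle library, and the joined locus below in 0, so both needed treated animals to enter the table. A difference from vehicle was thus built into their entry, and defensins without a row could not be compared. DEFB119, on the plus strand at 32679565 to 32692807, read 0.694, 0.399 and 1.68 CPM in vehicle, 11.2, 8.12 and 7.38 at 48 h, and 10.5, 11.9, 11.6 and 10.7 at 96 h. No treated animal came near the vehicle range, and the log2 fold changes were 3.24 ± 0.40 (adjusted p = 0.00105) and 3.57 ± 0.40 (adjusted p = 0.000412). DEFB119 was the 1 of 31 other listed beta-defensins that was measured on its own. A joined DEFB122 and DEFB124 locus on the plus strand (32593589 to 32647166) spans DEFB123 without sharing any exon base with it. It read 0.0991, 0.279 and 0.355 CPM, then 8.20, 4.73 and 4.82, then 7.07, 12.7, 14.5 and 7.25, and its log2 fold changes were 4.57 ± 0.48 and 5.39 ± 0.48 (adjusted p = 0.000522 and 0.000175). The strand setting of the counting is not given in the sources used here, so reads of unannotated exons on the opposite strand cannot be set apart. REM1, a small GTPase gene on the minus strand (32588318 to 32603067), overlaps one end of that joined locus, and was also called higher (log2 1.06 and 1.85, adjusted p = 0.0300 and 0.00164). Its 48 h call was lost without TP07, TP08, TP09, TP11 or TP12, and its 96 h call held in all 24 alternatives.

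**Figure D3:**
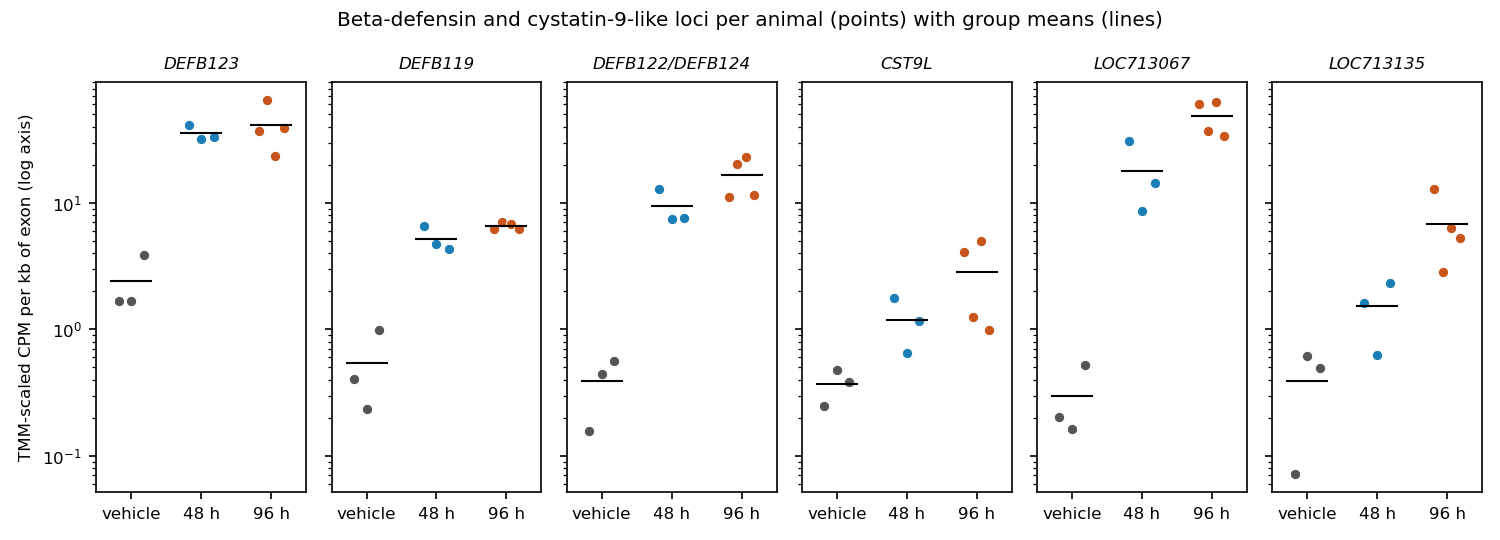
TMM-scaled CPM per kb of exon (log axis) of 3 beta-defensin and 3 cystatin-9-like loci in each animal, with group means as lines. All 6 loci needed treated animals to enter the table, and in each every treated animal lies above every vehicle animal. The 48 h and 96 h animals of LOC713067 do not overlap, though that difference was not called in the main test.

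FATE1 is a protein of the contact between the endoplasmic reticulum and mitochondria, known for its expression in fetal and adult testis. The gene is on the plus strand of chromosome X (145337399 to 145344673, up to 6 exons). FATE1 read 23.1, 11.7 and 26.8 CPM in vehicle, 63.2, 37.2 and 41.9 at 48 h, and 51.0, 65.8, 41.0 and 59.5 at 96 h. All treated animals lay above all vehicle animals, with TP09 the lowest and TP16 the highest. The log2 fold change was 1.21 ± 0.31 at 48 h (adjusted p = 0.0301) and 1.40 ± 0.29 at 96 h (adjusted p = 0.0117), ratios of means of 2.31 and 2.65. The 96 h call held in all 24 alternatives (adjusted p up to 0.0374). The 48 h call was lost without TP07 (adjusted p = 0.0605), TP08 (0.113), TP09 (0.0591) or TP12 (0.0572), and was 0.167 without both animals over 20 months. PRRG3, the gene before FATE1, was called lower at 48 h (log2 -0.90, adjusted p = 0.0326), a call lost without TP07, TP08, TP09, TP10 or TP11.

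Of 9 genes of mitochondrial fission and of contact with the endoplasmic reticulum, all measured, 2 (22.2%) were called higher at 48 h and 1 (11.1%) at 96 h, beside 14.7% and 17.3% over all loci with a symbol. DNM1L, the dynamin-like GTPase that divides mitochondria, rose from 70.6 ± 4.53 CPM (SD, n = 3) to 117 ± 7.59 (n = 3) and 111 ± 5.80 (n = 4), with adjusted p of 0.000883 and 0.000707. MFN2, a fusion and tethering protein, rose at 48 h (93.9 ± 4.73 to 118 ± 7.22 CPM, adjusted p = 0.0199). MFF, a fission factor of the outer mitochondrial membrane, was not called (log2 0.23 and 0.20). The 48 h count was 1 without TP08, TP09, TP11 or TP12, where the call of MFN2 was lost, and 0 with Sertoli-list scaling.

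BEX2 is a small X-linked gene of a family first named for expression in brain, with roles in signalling and transcription. It lies on the minus strand of chromosome X (97062456 to 97064168, up to 3 exons). BEX2 read 31.7, 26.0 and 26.1 CPM in vehicle, 35.2, 30.0 and 30.5 at 48 h, and 20.9, 28.7, 20.2 and 26.9 at 96 h. Vehicle overlapped both treated groups, while every 96 h animal lay below every 48 h animal. The log2 fold change was 0.19 ± 0.15 at 48 h (adjusted p = 0.455, interval -0.15 to 0.53) and -0.21 ± 0.14 at 96 h (adjusted p = 0.333, interval -0.53 to 0.11). Between the times it was -0.40 ± 0.14, with an unadjusted p of 0.0180 and an adjusted p of 0.171.

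Most other measured genes of the BEX and TCEAL families were called higher, while BEX1 and TCEAL6 were not. Of 12 measured BEX and TCEAL genes, small related proteins that include regulators of transcription elongation, 8 were called higher and 0 lower at 48 h, and 9 and 0 at 96 h. The higher shares were 66.7% and 75%, beside 14.7% and 17.3% over loci with a symbol. The list medians were 0.62 and 0.67, beside 0.08 at both times over loci with a symbol. TCEAL5, the gene beside BEX2, rose from 30.1 ± 2.82 CPM (SD, n = 3) to 94.6 ± 13.7 (n = 3) and 75.5 ± 15.1 (n = 4), with log2 fold changes of 1.65 ± 0.17 and 1.32 ± 0.16. TCEAL4 and TCEAL8 rose at both times (log2 0.98 and 0.83, and 0.69 and 0.80). TCEAL3 was called higher at both times (log2 1.77 ± 0.21 and 1.27), but TCEAL3, TCEAL5 and TCEAL6 are close copies and their counts are uncertain. TCEAL7, on the other side of BEX2, was called at 96 h only (log2 0.60, adjusted p = 0.0174; 48 h adjusted p = 0.0544), and that call was lost without TP07. BEX1, the closest relative of BEX2, read 166, 128 and 137 CPM, then 189, 152 and 168, then 124, 140, 102 and 137, and was not called (log2 0.24 and -0.19). BEX1 and BEX2 are close copies too, so the division of reads between them is uncertain. When an animal was left out the counts were 7 to 9 and 6 to 9, and without the animals over 20 months 7 and 7. Scaling by the summed Sertoli identity list, which holds BEX1 and other genes that rose themselves, reduced them to 3 and 4.

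**Figure D4:**
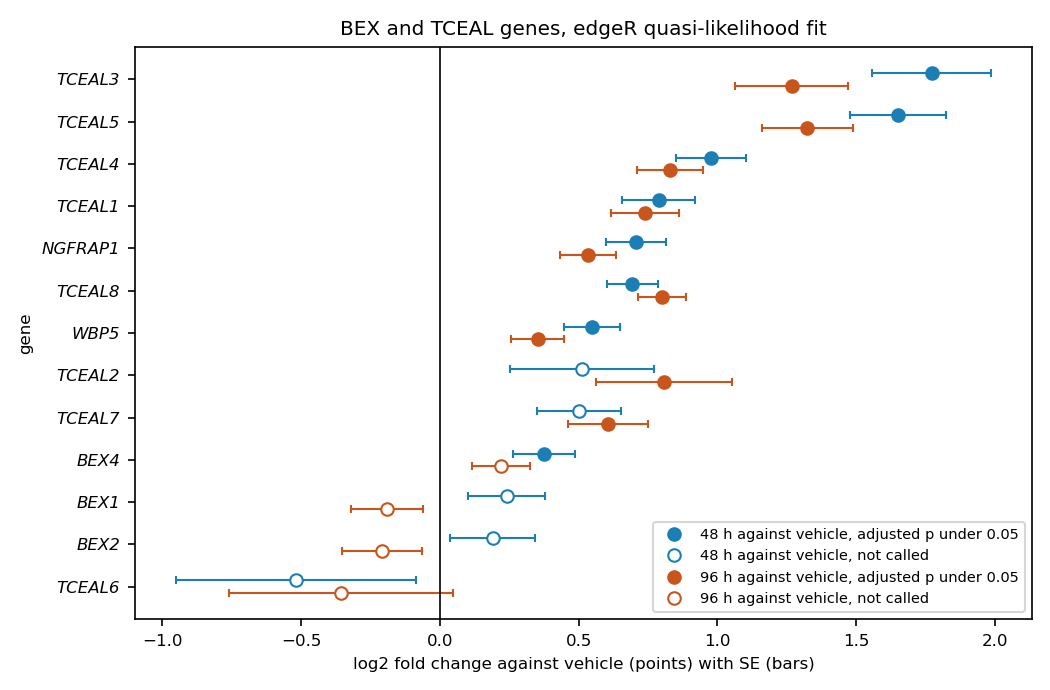
Log2 fold change against vehicle (x axis) with its SE for BEX2 and the 12 measured BEX and TCEAL genes; filled points have an adjusted p under 0.05. BEX1 and BEX2 lie close to 0 with opposite signs at 48 h and 96 h, and TCEAL3 and TCEAL5 lie farthest to the right.

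Further Sertoli products gave a mixed picture. Of 22 measured secreted products outside the 8, 7 were called higher and 2 lower at 48 h, and 7 and 1 at 96 h. The higher share was 31.8% at both times, beside 14.7% and 17.3% over loci with a symbol. The lower shares were 9.09% and 4.55%, beside 3.23% and 6.73%. TIMP1, an inhibitor of matrix metalloproteases, rose from 68.5 ± 5.94 CPM (SD, n = 3) to 220 ± 13.9 (n = 3) and 179 ± 40.7 (n = 4). LGALS1, a galactose-binding lectin, rose from 54.1 ± 9.72 to 164 ± 33.1 and 180 ± 49.4. INHA, the alpha subunit of inhibin, rose from 404 ± 44.2 to 806 ± 159 at 48 h and was 550 ± 43.0 at 96 h (adjusted p = 0.00183 and 0.0406). The 96 h call of INHA was lost in 11 of 24 alternatives. AMH, the hormone of immature Sertoli cells, stood at 935, 784 and 883 CPM on average and was not called. BMP4, a growth factor, was lower at both times (log2 -0.97 and -0.84), and GAS6, a ligand of phagocytic receptors, at 48 h (log2 -0.50, adjusted p = 0.0398). The calls of BMP4 were lost at 48 h without TP07, TP08, TP10, TP11 or TP12 and at 96 h without TP07, TP11 or TP17, and at both times without the animals over 20 months. The 96 h call was also lost with age class as a block. The 48 h higher count was 6 to 7 when an animal was left out, and the lower count 0 to 2, changing for every animal except TP15, TP16 and TP18. The 96 h higher count ran from 2 to 7, changing by over 1.5 times without TP07, TP11 or TP12, and both were 4 without the animals over 20 months.

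Of 23 measured identity genes, which share INHA, AMH, INHBB and DHH with the secreted list, 8 were called higher and 0 lower at 48 h, and 8 and 1 at 96 h. The higher share was 34.8% at both times, beside 14.7% and 17.3% over loci with a symbol. The lower shares were 0 and 4.35%, beside 3.23% and 6.73%. DEFB119 was among the genes called higher at both times. It needed treated animals to enter the table, so its rise was built into the higher shares. CLDN11, a tight-junction protein of the blood-testis barrier, rose from 58.8 ± 7.66 CPM (SD, n = 3) to 148 ± 40.4 (n = 3) and 142 ± 36.2 (n = 4). HOPX, a homeodomain cofactor, rose from 1.12 ± 0.146 to 2.95 ± 0.675 and 3.28 ± 0.108. The 48 h calls of CLDN11 and HOPX were lost without the animals over 20 months. WT1 and GATA4, transcription factors of Sertoli identity, were not called at either time (log2 0.03 and -0.05, and 0.13 and 0.03). KRT8, a keratin of simple epithelia, fell at 96 h against vehicle (log2 -0.61, adjusted p = 0.0285) and against 48 h (log2 -0.80, adjusted p = 0.0459), but neither call was stable. The first was lost without TP07, TP11, TP15 or TP17, with age class as a block and without the animals over 20 months. The second was lost without TP08, TP10, TP11, TP12, TP15, TP17 or TP18. FSHR, the FSH receptor, read 48.0, 65.4 and 55.1 CPM in vehicle, 54.6, 42.8 and 52.8 at 48 h, and 44.2, 74.2, 59.6 and 79.0 at 96 h, with overlapping groups and no call. The higher counts ran from 5 to 8 (changing without TP07 or TP09) and from 3 to 8 (without TP07, TP09, TP11, TP12 or TP16), and were 2 and 5 without the animals over 20 months.

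Levels of the 8 genes can be ranked only per length of exon. In vehicle the mean CPM per kb was 539 ± 48.9 (SD, n = 3) for CLU, 135 ± 23.6 for TF, 23.5 ± 2.74 for BEX2, 17.3 ± 2.02 for PLAT and 17.3 ± 6.59 for FATE1. DEFB123 followed at 2.41 ± 1.28, CST9L at 0.370 ± 0.116 and EPPIN at 0.117 ± 0.0807. FATE1 overlapped both BEX2 and PLAT, whereas the other neighbours in this order did not overlap. At 48 h FATE1 (40.0 ± 11.7) and DEFB123 (35.5 ± 5.10) ranked next after CLU and TF, overlapped each other, and exceeded BEX2 (26.9 ± 2.43) in every animal. At 96 h the order was the same, with CLU at 423 ± 48.6 (n = 4), TF at 124 ± 25.5, FATE1 at 45.8 ± 9.05, DEFB123 at 41.2 ± 17.2, BEX2 at 20.4 ± 3.58, PLAT at 13.3 ± 3.31, CST9L at 2.84 ± 2.02 and EPPIN at 0.393 ± 0.126. DEFB123 then overlapped FATE1 and BEX2, and BEX2 overlapped PLAT. The rank of DEFB123 depends on its model of 216 bases, the shortest of the 8. In CPM without length it stood at 7.67 at 48 h, beside 31.9 for BEX2.

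The 8 genes did not form 1 pattern over the 10 libraries. Pearson's r of log2 CPM was 0.92 between FATE1 and DEFB123, 0.76 between CST9L and EPPIN, 0.67 between CST9L and DEFB123, 0.65 between TF and PLAT, 0.63 between BEX2 and PLAT, and 0.61 both between TF and BEX2 and between EPPIN and DEFB123. CLU ran against FATE1 (-0.79) and DEFB123 (-0.77). These values describe 10 libraries that share the treatment groups, and carry no p. The loci most like each gene, among about 13640 with a symbol and a mean log2 CPM of at least 0, were CTXN1 (0.99), MCM3 and MCM6 (0.98 each) for DEFB123. For FATE1 they were C4H6orf141 (0.96), FUT1 (0.96) and TSPYL4 (0.95). For CLU they were KSR1 (0.95), ENKUR (0.94) and KAZN (0.92), and for BEX2 they were INHBB (0.98), which encodes an inhibin and activin subunit, RIMS4 (0.98) and GEMIN5 (0.97). For CST9L they were SEPT8 (0.98), ABCC1 (0.96) and ABAT (0.95), for PLAT PHEX (0.93), TBCK (0.93) and LRIF1 (0.91), and for EPPIN FAM107A (0.92), PITPNC1 (0.90) and USP54 (0.89). TF had the loosest best match, PBX4 (0.88), then SRFBP1 (0.87) and KIAA1919 (0.86).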

How the data were processed

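The submitters' processing notes name these upstream tools: cutadapt 1.9.1, TopHat2 2.1.1 and Bowtie2 2.2.8; also Cufflinks 2.2.1; also HTSeq 0.6.1p1; and, with no version, edgeR. The build was rheMac8. The kit keeps strand, per the labels' protocols. The authors deposited raw counts for each locus and library, CPM, and their own log2 fold changes and p-values, which enter only sentences that name the authors' deposited table. Deposited transcript models gave coordinates and exon lengths. Loci in the table had a CPM of 1 or more in 3 or more libraries.

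The main test of the deposited counts was the quasi-likelihood F test of edgeR 4.0.16 (R 4.3.3) with TMM factors and robust dispersion, on group means of all 10 libraries, with Benjamini-Hochberg adjustment over 26813 loci. The expression filter left out 0 loci. The biological coefficient of variation came to 0.259. SE came from the F statistic, and 95% intervals use the t distribution with the residual and prior degrees of freedom of the fit. The prior count of edgeR shrinks fold changes of low loci. A floor of 3 counts was 0.0988 to 0.1375 CPM, for counting error only. Replicates differed by 15.8 to 49.9 chi-square per degree of freedom, so each counts as 1 sample. The fit was tested on simulated counts. Python 3.11.15 made tables and plots.

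A symbol carried by several loci was represented by the locus with most counts. TF and CST9L were matched by gene ID in the RefSeq gene table, and EPPIN by its deposited description. The 8 genes, the gene lists and the markers were chosen with earlier results of these data known. Named from each list were up to 3 called genes with the smallest p per comparison, or the 2 most abundant where none was called, with the genes beside each member and its 3 most similar loci. Other list genes, the unplaced cystatin loci, the joined defensin locus, BEX1 and FSHR were named after values were seen. A gene of the plasminogen list that the rule named is not reported here, nor is that list's 96 h count. Alternatives covered scaling, filters, exactTest, DESeq2 1.42.0, limma 3.58.1 voom, the compared groups alone, age, summed loci, exon length and omission of each animal. No sequence is shown, as no sequence file was used here.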

Additional observations from a re-analysis of the deposited data

How the results depend on the processing

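Of 570 values of the 8 genes over 3 comparisons and up to 24 alternatives, 529 kept direction and side of the threshold, 27 lost the call, 3 gained it and 11 changed sign. Most of the 529 were uncalled values that stayed uncalled, so that number says little about the calls. The 27 lost calls fell on CLU at 96 h (15), FATE1 at 48 h (7) and CST9L at 96 h (5). The alternative without a filter could not differ from the main fit, as the expression filter left out 0 loci. CST9L and EPPIN had 23 alternatives, as a mean CPM of at least 5 left them out. At 48 h, 2 of the 8 genes were called, and 1 with upper-quartile scaling, with scaling by the Sertoli identity list and without the animals over 20 months. Leaving out 1 animal gave 1 to 2 (1 without TP07, TP08, TP09 or TP12). At 96 h, 4 were called, and 2 with age class as a block and without the animals over 20 months. Leaving out 1 animal gave 2 to 4 (2 without TP07 or TP11). The cause was not tested. Sign changed in uncalled values. With Sertoli-list scaling at 48 h TF was -0.116, BEX2 -0.105 and PLAT -0.115, and CLU at 96 h against 48 h was 0.041. That scaling lowered 48 h values in general (median over all loci -0.35, beside -0.07), and genes of the list rose themselves. Without the animals over 20 months EPPIN at 48 h was -0.129 and TF at 96 h was 0.0202, and with age class TF at 96 h was 0.082. When an animal was left out the 48 h value of TF lay between -0.113 and 0.348 and its 96 h value between -0.231 and 0.0203, with 0.0009 without TP15, and DEFB123 at 96 h against 48 h ran from -0.0908 to 0.395.

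Scaling moved the calls over all loci. The median log2 fold change at 48 h was -0.07, and -0.20 with the upper quartile, -0.15 with library totals and -0.35 with the Sertoli list. At 96 h it was -0.01, and -0.16, -0.16 and -0.15. At 48 h 2288 loci were called higher and 985 lower, and 1392 and 1732, 1646 and 1343, and 351 and 1862 in the same order. At 96 h 2836 were higher and 1848 lower, and 1687 and 3532, 1674 and 3230, and 951 and 2559. Between 96 h and 48 h 219 were higher and 67 lower, 162 and 114 with library totals, 173 and 7 with the Sertoli list, 605 and 295 with exactTest, and 1073 and 754 with DESeq2. Those calls fell to 1 and 1 without TP08, 5 and 4 without TP10, 3 and 2 without TP17 and 2 and 1 without the animals over 20 months. They were 171 and 7 with age class, 76 and 19 with age as a covariate and 291 and 258 with a mean CPM of at least 5. Without the animals over 20 months 696 were higher and 154 lower at 48 h, and 1447 and 493 at 96 h. DESeq2 called 3386 higher and 1693 lower at 48 h. At 96 h age class left 1350 and 412, and age as a covariate 2210 and 861. Leaving out 1 animal gave at the lowest 1240 and 324 at 48 h (TP08), and at 96 h 1592 higher and 618 lower (TP07). With the longest transcript model as the length, FATE1 ranked above PLAT in vehicle. No paired analysis was run because the labels tie no animal of 1 group to an animal of another and each animal number occurs in 1 group. Vehicle and 48 h animals with consecutive numbers were alike in age: TP07 and TP08 (24 and 22 months), TP09 and TP10 (14), TP11 and TP12 (15). The labels do not say that they were matched. Age class, which puts the animals of each such pair together, was fitted as a block instead. All animals of the 96 h group fell in the class of TP09 and TP10. With the block, the 96 h comparisons therefore rest directly on 1 vehicle animal and 1 animal of the 48 h group. Whether a call lost with the block follows from age or from fewer animals cannot be told apart. Genes with few counts, CST9L and EPPIN, have the widest errors.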
